A study of Mus musculus with 192 samples.

Results

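The temporal bone of ground-kept Nrf2-knockout (Nrf2-KO) and wild-type (WT) male mice is compared here, with 12 libraries of 192 in the series: all those labelled as temporal bone, Ground_control and either genotype. Each library came from a separate mouse, 6 of each genotype. The ground control (GC) mice were 12 weeks old by the labels, on a C57BL/6 background (C57BL/6J in the methods), and were housed one to a cage in the flight hardware on Earth. The KO mice carried the Nfe2l2tm1Ymk allele in every cell, and mice with a hepatic shunt had been screened out beforehand. The remaining temporal bone libraries came from mice that had flown to the space station (FL), 6 WT and 5 KO mice after the library FL04 was left out. They served as other animals in which to look up the same genes. Mice are named as in the labels (GC01 to GC12).

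Nrf2, encoded by Nfe2l2, is a basic leucine zipper transcription factor that Keap1 holds at a low level by feeding it to a ubiquitin ligase. Electrophiles and oxidants modify Keap1, and Nrf2 then accumulates, pairs with a small Maf protein and binds antioxidant response elements near genes for glutathione, thioredoxin and NADPH metabolism, conjugation and iron handling. The temporal bone holds the cochlea and vestibular organs in a capsule of dense bone, with some marrow, and muscle, brain, pituitary and skin lie against it in the skull.

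Each library held 14065045 to 15088482 expected counts, with a median of 14518977 in WT and 14438979 in KO mice. Libraries of the same genotype correlated with a median Pearson r of 0.912 over genes, against 0.913 for libraries of different genotype. Markers of the labelled tissue were present in all 12 mice. Otos, a secreted protein of the cochlear fibrocytes, ranged from 130.1 to 1418 TPM (transcript abundance scaled for gene length and library size), Coch, the major matrix protein of the inner ear, from 831.5 to 3175 TPM and Bglap, the osteoblast protein osteocalcin, from 368.8 to 1464 TPM. Transcripts of adjoining tissue varied far more. Acta1, the skeletal muscle actin, was at 2.66 TPM in the KO mouse GC01 and at 433 to 7626 TPM in the other 11 mice. Gh, growth hormone of the pituitary, was at 11287 TPM in GC01, 1183 TPM in GC12 and 164 TPM in GC04, all KO mice, and at 67.4 TPM or less in the other 9. Ttr, transthyretin, which the choroid plexus of the brain secretes, was above 100 TPM in the WT mice GC03, GC05 and GC08 alone. The counts of changed genes are therefore also given without these libraries.

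**Figure D1:**
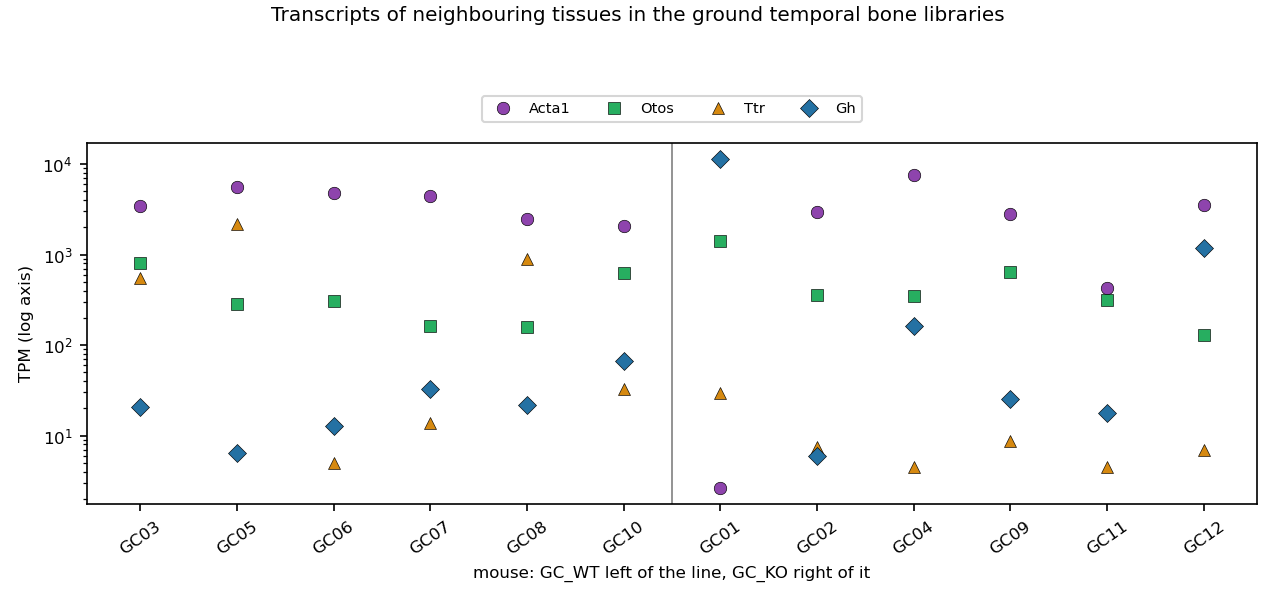
Expression in TPM (log axis) of Acta1 (skeletal muscle), Otos (cochlea), Ttr (choroid plexus) and Gh (pituitary) in the 12 ground mice, 1 point a mouse, by genotype. Acta1 is lowest and Gh highest in the KO mouse GC01, Gh is above 100 TPM in 3 KO mice, Ttr is above 100 TPM in 3 WT mice, and Otos is expressed in every mouse.

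Of 18184 genes tested between the ground genotypes with the edgeR quasi-likelihood test, 36 (0.198%) differed at a Benjamini-Hochberg adjusted p under 0.05. In KO mice 14 were higher (0.0770%) and 22 lower (0.121%), and 528 genes (2.90%) had an unadjusted p under 0.05. For 29 of the 36, the range of the 6 KO mice and that of the 6 WT mice did not overlap, as was so for 44 of all genes tested (0.242%). The 36 comprised 22 protein-coding genes, beside pseudogenes, antisense transcripts, lincRNAs, processed transcripts and TEC models (loci still to be checked by experiment). DESeq2 called 56 genes and limma, on log2(TPM + 1), called 28. With only the 12 ground libraries in the edgeR model, 22 were called, all among the 36. There Tmem254b, Olfml3, Cd59a, 2810002D19Rik, Ttr, Borcs7, Osgin1, Fam205a2 and Fam205a3 had adjusted p from 0.0763 to 0.722, and 4931408C20Rik, Gm13302, Gm38378, Gm37513 and Gm43242 did not pass the low-count filter. The count was 26 without the 3 WT libraries rich in Ttr, 29 without the 3 KO libraries rich in Gh and 15 without both sets, with 3 mice left in each group.

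Nfe2l2 itself, on chromosome 2 (GRCm38, 75675513 to 75704641, minus strand), was still transcribed in KO mice. In WT mice it ran from 55.5 TPM through a median of 66.8 to 73.9 TPM, and in KO mice from 18.3 TPM through 26.4 to 36.1 TPM. Every KO mouse was below every WT mouse. The log2 fold change (KO over WT, from counts, as throughout) was -1.38 (SE 0.21, adjusted p = 0.00169, edgeR). The SE of each edgeR fold change was worked out from the F statistic of the test. Counts are per gene, so which part of the transcript remained was not looked at. With 3 mice a genotype, the value was -1.31 in the lower and -1.41 in the higher library numbers, neither called, and without both the Gh-rich and the Ttr-rich libraries it was -1.68 (adjusted p = 0.0551). Of the 225 genes tested whose start lay within 20 Mb of Nfe2l2, 2 were called, Nfe2l2 and 2810002D19Rik, a noncoding transcript 18.7 Mb away. The latter ranged from 2.61 through 4.65 to 5.67 TPM in WT and from 1.49 through 2.02 to 3.37 TPM in KO mice with some overlap (log2 fold change -1.10, SE 0.18, adjusted p = 0.004). The median log2 fold change of the 225 was 0.02, next to 0.01 for all genes tested. On the whole of chromosome 2, 3 of 1400 tested genes were called, all lower in KO mice. They were these 2 and Cd59a, which starts at 104095801, outside that window. Over all genes tested it was 36 of 18184 (0.198%), so these counts alone do not set the chromosome apart.

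Among genes tied to Nrf2 in the literature, Gstm1, Osgin1 and the ferritin light chain copy Ftl1-ps1 were lower in KO mice. Gstm1, a mu-class glutathione transferase that conjugates electrophiles (chromosome 3, 108012255 to 108017973), ran from 183 through 247 to 378 TPM in WT mice and from 97.2 through 112 to 137 TPM in KO mice. The groups did not overlap, the mean going from 260.5 ± 69.2 to 112.4 ± 15.0 TPM (SD, n = 6 each) (log2 fold change -1.27, SE 0.14, adjusted p = 3.39e-05, edgeR). Osgin1, an oxidative stress-induced growth inhibitor and flavin monooxygenase-like protein (chromosome 8, 119434124 to 119446256), ran from 7.76 through 10.5 to 17.4 TPM in WT and from 2.65 through 3.31 to 5.59 TPM in KO mice. No KO mouse reached the lowest WT mouse (log2 fold change -1.74, SE 0.34, adjusted p = 0.0246). The call was among the less firm: it held in 10 of 25 other settings, and leaving out any one of the WT mice GC05 or GC06 or the KO mice GC01, GC02, GC09, GC11 or GC12 gave an adjusted p between 0.057 and 0.0978.

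Ftl1-ps1 (chromosome 13, 74399694 to 74407346) is named as a pseudogene of Ftl1, the ferritin light chain that stores iron, but annotated as protein coding. It ran from 25.6 through 32.3 to 46.2 TPM in WT and from 6.01 through 8.24 to 10.1 TPM in KO mice, again without overlap (log2 fold change -2.18, SE 0.28, adjusted p = 1.49e-04, edgeR). Ftl1 stood at 1431 ± 371 TPM in WT and 1017 ± 346 TPM in KO mice (log2 fold change -0.66, unadjusted p = 0.0178, adjusted p = 0.999), and was not called. Reads of the near-identical copies can be assigned to either gene, so the split between Ftl1 and Ftl1-ps1 is uncertain.

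Other standard Nrf2 targets were not called. Aox1, an aldehyde oxidase, came nearest, at 10.1 ± 2.79 TPM in WT and 6.08 ± 0.98 TPM in KO mice (log2 fold change -0.75, SE 0.17, adjusted p = 0.116, edgeR). Its 2 groups did not overlap, and DESeq2 called it. Nqo1, the quinone reductase most often used as a readout of Nrf2, stood at 13.5 ± 3.11 TPM in WT and 10.1 ± 2.97 TPM in KO mice (log2 fold change -0.54, SE 0.18, unadjusted p = 0.00583, adjusted p = 0.956, edgeR). Its lowest and highest values were 9.65 and 17.5 TPM in WT against 6.88 and 15.2 TPM in KO mice, so most of the ranges were shared. Hmox1, which degrades haem, was more scattered, at 39.96 ± 13.5 and 23.5 ± 4.18 TPM (log2 fold change -0.88, SE 0.47, unadjusted p = 0.0741). In the flown mice the log2 fold change of Nqo1 was -0.56 (unadjusted p = 0.00686, adjusted p = 0.976, edgeR), without overlap between the genotypes. That of Hmox1 was -0.26 there (unadjusted p = 0.595, edgeR), with overlap.

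The enzymes of glutathione synthesis and thioredoxin reduction lay closer together. Txnrd1, thioredoxin reductase, was at 38.9 ± 4.95 TPM in WT and 34.5 ± 6.42 TPM in KO mice (log2 fold change -0.25, SE 0.07, unadjusted p = 0.00274, adjusted p = 0.579, edgeR). The subunits of glutamate-cysteine ligase, the rate-limiting enzyme of glutathione synthesis, had log2 fold changes of -0.24 (Gclc, SE 0.11) and -0.16 (Gclm, SE 0.13), neither called. Srxn1, sulfiredoxin, stood at 51.2 ± 22.9 and 49.6 ± 19.8 TPM, and its log2 fold change of -0.11 (SE 0.22) changed sign without the WT mouse GC08. Gsta4, which clears lipid aldehydes, stood at 136 ± 38.8 and 158 ± 78.3 TPM (log2 fold change 0.09, SE 0.23), the KO mouse GC01 alone at 314 TPM. Without GC01 its sign turned to -0.15.

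Counted by role, the Nrf2-linked lists held 3 called members, 1 each in the lists of the Nrf2 system (Nfe2l2), of target oxidoreductases (Osgin1) and of glutathione transferases (Gstm1). Of 11 tested genes of the Nrf2 system, which includes Keap1 and the small Maf partners, 10 had a log2 fold change below 0, with a median of -0.12. In the target oxidoreductases it was 13 of 16 (median -0.28, 4 at an unadjusted p under 0.05). In the glutathione transferases it was 12 of 19 (median -0.09, 2 at that p). No member was called by edgeR, DESeq2 or limma in 5 further lists. These were glutathione synthesis and reduction (11 of 15 below 0, median -0.16, 3 at an unadjusted p under 0.05), thioredoxins and peroxiredoxins (14 of 15, median -0.13, 3 at that p), NADPH and pentose phosphate enzymes (8 of 9, median -0.26, 1), efflux and conjugation (11 of 13, median -0.29, 2) and proteasome subunits (29 of 32, median -0.06, 2). Over all genes tested 0.198% were called, 2.90% had an unadjusted p under 0.05 and the median log2 fold change was 0.01. A run of small negative values in co-expressed genes carries no test of its own.

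Besides Aox1 and Txnrd1, the leading members by unadjusted p included Cat, catalase, Mgst1, a membrane-bound glutathione transferase, Gpx4, Gsr and Rpe. Cat stood at 126.5 ± 15.3 TPM in WT and 87.9 ± 12.8 TPM in KO mice, without overlap (log2 fold change -0.59, SE 0.17, adjusted p = 0.495, edgeR). Mgst1 stood at 127 ± 13.2 and 77.4 ± 18.9 TPM (log2 fold change -0.81, SE 0.23, adjusted p = 0.495). Gpx4, which reduces lipid peroxides, and Gsr, glutathione reductase, had log2 fold changes of -0.28 and -0.55, both with an adjusted p of 0.999. Rpe, of the pentose phosphate pathway, was at 19.8 ± 1.08 and 16.5 ± 1.43 TPM (log2 fold change -0.33, adjusted p = 0.999). These 5 log2 fold changes were below 0 without passing the test.

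**Figure D2:**
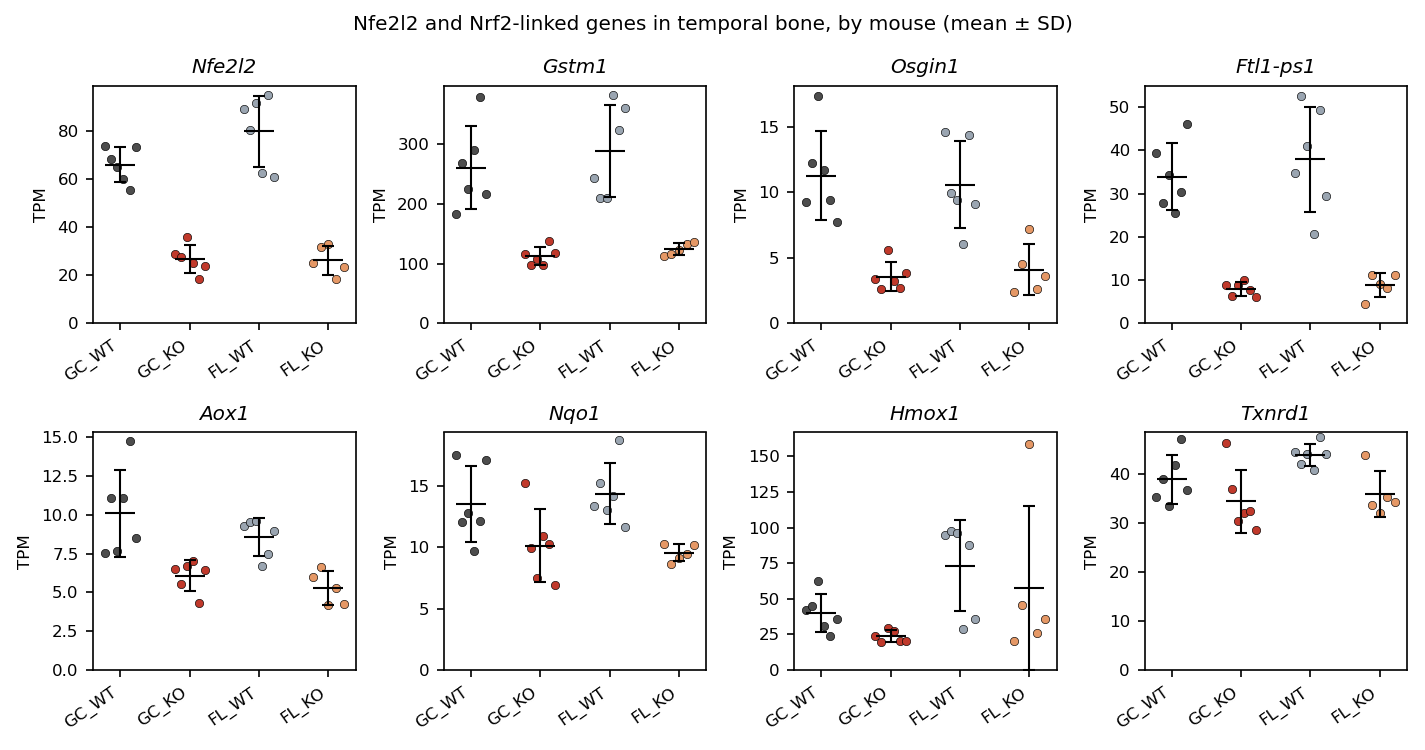
Expression in TPM of Nfe2l2, Gstm1, Osgin1, Ftl1-ps1, Aox1, Nqo1, Hmox1 and Txnrd1 in each mouse of the ground and flight groups of both genotypes, with mean ± SD (bars that would pass below 0 end at 0). The ground KO mice lie wholly below the ground WT mice for Nfe2l2, Gstm1, Osgin1, Ftl1-ps1 and Aox1, and overlap them for Nqo1, Hmox1 and Txnrd1.

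The core letters of the antioxidant response element, TGACNNNGC, were looked up on both strands of RefSeq promoters (GRCm38.p6, 250 bases before to 50 after the start of transcription). Of the called genes, 33 were looked up, 15 matched a promoter by symbol and 2 held the letters, Nfe2l2 and Capza1. Of 122 genes in the lists of Nrf2 targets, without the Nrf2 system list, 101 matched and 19 (18.8%) held them. Over the 27025 genes with a promoter on the other chromosomes it was 14%, and over their 32851 promoters 12.4%. The windows of Gstm1, Osgin1 and Nqo1 did not hold these letters, which says nothing of sites outside this window. The sites in the called genes and in 3 target genes that were not called are shown to set the matched letters, in capitals, beside their different outcomes. Each is written 5′ to 3′ on the strand that carries the match.
Nfe2l2 (chr2:75704885-75704913, minus strand, called lower): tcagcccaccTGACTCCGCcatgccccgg
Capza1 (chr3:104864488-104864516, minus strand, called lower): cgcgcggaacTGACATGGCgccctcttgg
Txnrd1 (chr10:82859104-82859132, minus strand, not called): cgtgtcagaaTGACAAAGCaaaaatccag
Gclm (chr3:122245413-122245441, minus strand, not called): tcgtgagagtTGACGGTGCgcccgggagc
Me1 (chr9:86695902-86695930, minus strand, not called): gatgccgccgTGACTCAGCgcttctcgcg
A match of these letters is a description of the sequence and not evidence of binding.

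More of the 36 genes sat in a few stretches of chromosome than in Nrf2-linked lists. On chromosome 14, between 69337174 and 69613779 (277 kb), 6 of 7 tested genes were called and all 6 were higher in KO mice. On chromosome 4, between 41893388 and 42629719 (736 kb), 9 of 21 tested genes were called and all 9 were lower. Over all genes tested 0.198% were called. Each stretch, also those on chromosomes 3 and 13 below, joins called genes whose starts lie within 5 Mb of the next. It runs from the first to the last called start, so its ends are called by construction and its share is no test of clustering. The chromosome 14 and 4 stretches hold duplicated gene models, so counts can be divided among copies, and pairs with identical values count as one signal.

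The chromosome 14 group centred on Entpd4 and its copy Entpd4b, nucleoside diphosphatases of the Golgi and lysosome. Entpd4 ran from 28.0 through 35.3 to 44.5 TPM in WT and from 63.8 through 77.3 to 153.8 TPM in KO mice (log2 fold change 1.18, SE 0.16, adjusted p = 2.46e-04, edgeR). Entpd4b ran from 14.9 through 17.9 to 20.7 TPM in WT and from 30.9 through 35.8 to 72.5 TPM in KO mice (log2 fold change 1.11, SE 0.15, adjusted p = 2.46e-04). In both genes all KO mice exceeded all WT mice, and GC01 was the highest. Gm27177, annotated antisense to Entpd4b and Loxl2, went from 0.08 to 0.3 TPM in WT (median 0.19) to 21.6 to 35.1 TPM in KO mice (median 24.6). Its log2 fold change of 7.28 (SE 0.34, adjusted p = 1.52e-11) was the only call of the 36 that held in all 25 other settings.

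Gm16867, Gm38378 and Gm37513 in this stretch had no count at all in the 6 WT libraries. Gm16867, a protein-coding model that overlaps Entpd4 on the other strand, had 604 counts in KO mice (1.69 to 7.50 TPM), at least 204-fold higher against a floor of 3 counts over the group. Gm38378 and Gm37513, which lie within Gm16867 and Gm27177, had identical values of 0.50 to 1 TPM in KO mice, from 77 counts each, at least 26.1-fold higher. These low counts missed the filter in some settings, and the pair was called in 11 of 25. Loxl2, the lysyl oxidase-like enzyme that closes the stretch, was the 1 tested gene not called, at 4.42 ± 1.42 TPM in WT and 4.77 ± 1.82 TPM in KO mice. The setting used to count strand is not given in the sources used here, so reads of Gm27177, Entpd4b and Loxl2 may not be told apart where they overlap.

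On chromosome 4, 6 of the 9 called genes had little or no signal in KO mice, and Gm2564, Fam205a2 and Fam205a3 kept a clear level. Gm5859 ran from 7.24 through 25.1 to 45.0 TPM in WT and from 0 through 0.03 to 0.23 TPM in KO mice (log2 fold change -8.50, SE 0.70, adjusted p = 2.68e-07, edgeR). Gm13301 ran from 5.38 through 15.4 to 25.6 TPM in WT and reached 0.18 TPM at most in KO mice (log2 fold change -7.62, SE 0.70). Gm17081 ran from 9.52 through 23.8 to 47.3 TPM in WT and from 0 to 1.33 TPM in KO mice (log2 fold change -6.24, SE 0.72). All 3 separated the genotypes fully.

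Gm10600, from 5.13 through 13.8 to 25.6 TPM in WT mice, had 1392 counts there and none in KO mice, at least 457-fold lower. Gm13302 had 113 counts in WT and 1 in KO mice, a count ratio of 111 (95% interval 19.6 to 4440, Clopper-Pearson, counting error only). Gm17167, which overlaps Gm13301 on the same strand, ran from 1.25 through 4.85 to 13.1 TPM in WT and to 0.07 TPM at most in KO mice. Gm2564 ran from 21.2 through 23.6 to 29.1 TPM in WT and from 7.35 through 8.90 to 11.4 TPM in KO mice (log2 fold change -1.45, SE 0.20, adjusted p = 3.63e-04). Fam205a2 and Fam205a3, with identical values, were at 1.94 ± 0.77 TPM in WT and 1.02 ± 0.22 TPM in KO mice (log2 fold change -0.96, adjusted p = 0.0228), overlapped between genotypes, and were called in 9 of 25 other settings. Without any one of the WT mice GC03, GC07, GC08 or GC10 or the KO mice GC02, GC04, GC11 or GC12 their adjusted p was 0.0596 to 0.0911.

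**Figure D3:**
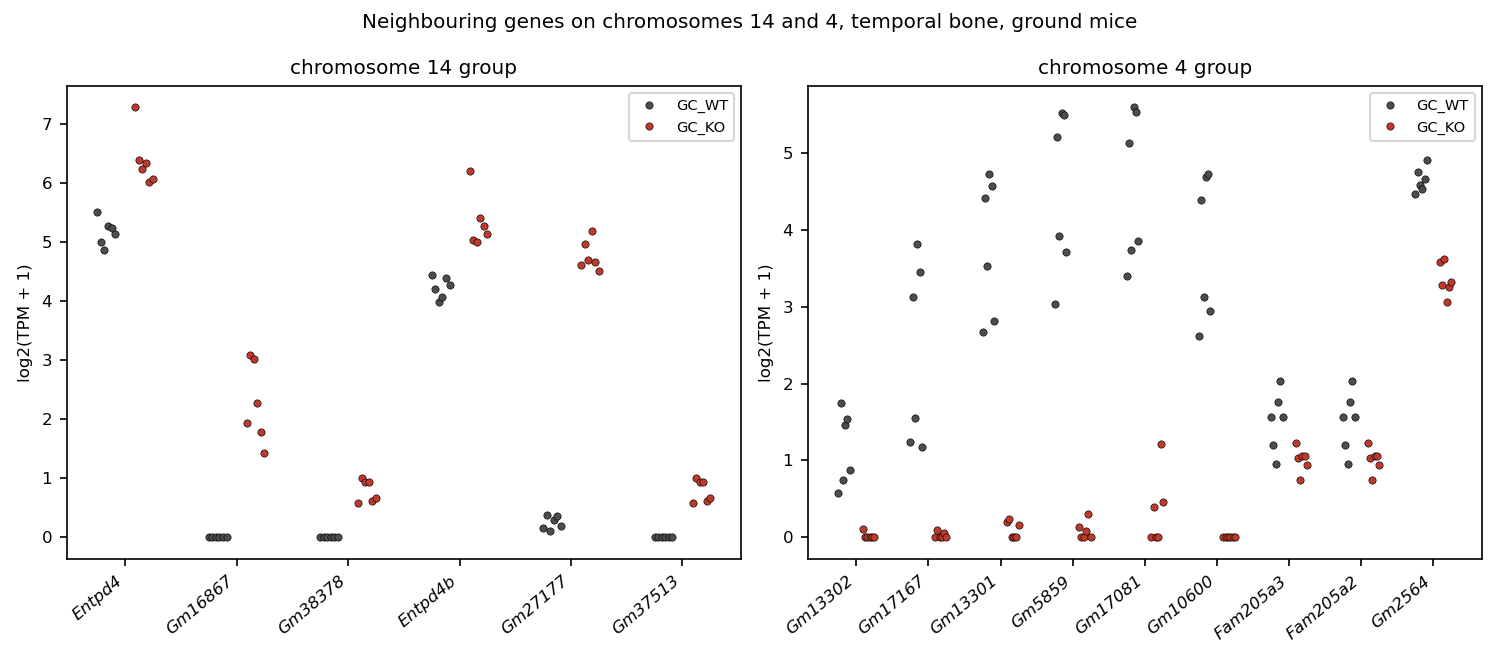
Expression, as log2(TPM + 1), of the called genes of the chromosome 14 and chromosome 4 stretches in each ground mouse, WT and KO. All 6 chromosome 14 genes are higher in KO mice, and the chromosome 4 genes are lower, most of them at or near 0 in every KO mouse.

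A looser group on chromosome 3 (102369162 to 108012255, 4 of 76 tested genes called) took in Gstm1 itself, with Capza1, Olfml3 and Gm43242. Capza1, the alpha subunit of the protein that caps actin filaments, ran from 51.5 through 55.1 to 56.8 TPM in WT and from 19.6 through 25.7 to 27.7 TPM in KO mice (log2 fold change -1.23, SE 0.17, adjusted p = 3.63e-04, edgeR). Olfml3, a secreted olfactomedin-like protein, ran from 19.5 through 23.7 to 31.7 TPM in WT and from 8.29 through 11.2 to 15.2 TPM in KO mice (log2 fold change -1.22, SE 0.20, adjusted p = 0.004). For both genes every KO mouse was below every WT mouse. Gm43242, a noncoding RNA, was higher in KO mice, at 0.40 through 1.06 to 2.45 TPM against 0.06 through 0.18 to 0.25 TPM (log2 fold change 2.68, SE 0.44, adjusted p = 0.00316).

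At the end of chromosome 13, 2 of 4 tested genes between 119335528 and 119488039 were called in opposite directions. Nnt, the mitochondrial transhydrogenase that makes NADPH and in which C57BL/6J mice carry a deletion, is listed under 2 overlapping gene IDs. The called one (ENSMUSG00000116207.1) ran from 8.66 through 10.2 to 11.5 TPM in WT and from 14.6 through 23.7 to 25.7 TPM in KO mice (log2 fold change 1.05, SE 0.20, adjusted p = 0.0155, edgeR). Without GC04, GC05, GC08 or GC09 its adjusted p was 0.0527 to 0.0658. The other (ENSMUSG00000025453.18) went the same way without a call, at 2.81 ± 1.82 and 9.06 ± 4.89 TPM (log2 fold change 1.57, adjusted p = 0.999). Tmem267, a transmembrane protein, was lower in KO mice, at 5.80 through 8.04 to 12.0 TPM against 19.1 through 26.6 to 31.1 TPM (log2 fold change -1.67, SE 0.16, adjusted p = 2.44e-06).

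Other calls higher in KO mice lay apart from these stretches. Wdfy1, an endosomal FYVE-domain adaptor (chromosome 1, 79702262 to 79776143), ran from 9.74 through 11.4 to 12.9 TPM in WT and from 19.9 through 23.8 to 29.9 TPM in KO mice. With a log2 fold change of 1.02 and an SE of 0.06 (adjusted p = 4.53e-10, edgeR) it was among the most even differences. The pseudogenes Gm3608 and Gm7868 went from 0.27 to 1.89 TPM and from 0 to 0.57 TPM in WT to 27.6 to 37.8 TPM and 9.80 to 18.1 TPM in KO mice (log2 fold changes 4.61, SE 0.37, and 5.61, SE 0.69). Borcs7, a subunit of the complex that positions lysosomes, ran from 6.13 through 8.21 to 11.6 TPM in WT and from 10.4 through 13.7 to 19.3 TPM in KO mice, with some overlap (log2 fold change 0.68, SE 0.10, adjusted p = 9.25e-04). 1500015A07Rik, antisense to Afap1l1, ran from 3.37 through 4.15 to 4.84 TPM in WT and from 13.5 through 21.5 to 38.6 TPM in KO mice (log2 fold change 1.22, SE 0.16). Its mean TPM (4.16 and 23.6) differed by more than its counts, 347 in WT and 798 in KO mice, on which the log2 fold change rests. A further gene, 4931408C20Rik, had 67 counts in KO and 1 in WT mice, a count ratio of 68 (95% interval 11.8 to 2730), but was called in 5 of 25 other settings. Leaving out any one of 11 mice ended that call (adjusted p between 0.0595 and 0.157), GC01 being the exception.

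Calls lower in KO mice outside these stretches included Redrum, a long noncoding RNA known from erythroid cells (chromosome 18), at 2.73 through 4.41 to 8.75 TPM in WT and 0.08 through 0.15 to 0.34 TPM in KO mice (log2 fold change -4.74, SE 0.46, adjusted p = 3.19e-06, edgeR). Tmem254b, one of several copies of a transmembrane protein gene, ran from 18.2 through 20.2 to 33.2 TPM in WT and from 4.47 through 5.31 to 14.3 TPM in KO mice (log2 fold change -1.76, SE 0.30). Cd59a, which protects cells from complement, ran from 25.6 through 36.1 to 47.6 TPM in WT and from 14.2 through 17.2 to 26.1 TPM in KO mice (log2 fold change -1.03, SE 0.17). Only Cd59a of these 3 overlapped between the genotypes, and it lies on chromosome 2, as Nfe2l2 does. Cdc42bpg, a kinase that acts with the small GTPase Cdc42, ran from 27.4 through 36.9 to 65.1 TPM in WT and from 12.4 through 16.2 to 23.4 TPM in KO mice, without overlap (log2 fold change -1.32, SE 0.22, adjusted p = 0.004).

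Ttr was called lower in KO mice, with very uneven values among the WT mice. It was at 547 TPM, 2155 TPM and 901 TPM in the WT mice GC03, GC05 and GC08, at 4.98 to 32.5 TPM in the other 3 WT mice, and at 4.54 to 29.7 TPM in the 6 KO mice. The genotypes overlapped, and the log2 fold change of -5.93 (SE 1.11, adjusted p = 0.0155, edgeR) went to -0.88 once those 3 mice were left out (adjusted p = 0.895). Without any one of the KO mice GC02, GC04, GC09, GC11 or GC12 the adjusted p was 0.0593 to 0.0668. All 8 genes of a choroid plexus list drawn up after these values were seen had a log2 fold change below 0 (median -1.23). Their summed level ran from 48.6 through 381 to 2781 TPM in WT and from 60.4 through 83.7 to 155 TPM in KO mice. Folr1, a folate receptor of that tissue, stood at 6.84 ± 8.56 TPM in WT and 0.71 ± 0.41 TPM in KO mice, and its log2 fold change of -3.30 had an adjusted p of 0.0694.

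In the flown mice, which are different animals from the ground mice, all 36 genes had the same sign and 35 had an unadjusted p under 0.05. There 37 genes (0.203%) were called, 13 higher and 24 lower in KO mice. Both comparisons called 31 genes in the same direction, 12 higher and 19 lower, which is 86.1% of the ground calls and 83.8% of the flight calls. Over all genes tested 61.6% had the same sign. Of the 36 genes, 32 did not overlap between the flown genotypes, against 130 (0.715%) of all genes tested. The median size of the log2 fold change was 1.75 on the ground and 1.53 in flight.

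The 5 ground calls not repeated in flight were Entpd4, Nnt, Osgin1, 2810002D19Rik and Ttr. Entpd4 and 2810002D19Rik fell just short there (log2 fold changes 0.77 and -0.90, adjusted p = 0.0506 and 0.0574, edgeR). Nnt had a log2 fold change of 0.83 (adjusted p = 0.204) and Osgin1 one of -1.29 (adjusted p = 0.485). Ttr was at -0.93 (SE 0.99, adjusted p = 0.976, edgeR). It was the 1 gene of the 36 whose difference between flight and ground had a small unadjusted p in the edgeR model (0.00161, with an adjusted p of 1). Called by edgeR in flight only were Plac9b, Phtf1, Sfxn2, Glb1l, Vcpkmt and 9030025P20Rik, named as the full set of that kind. All 37 flight calls had the same sign on the ground, 36 of them at an unadjusted p under 0.05 (edgeR). DESeq2 called Plac9b, Vcpkmt and 9030025P20Rik on the ground as well. The interaction of genotype and flight was called for no gene by edgeR (321 at an unadjusted p under 0.05) or limma. DESeq2 called 3, the pituitary genes Gh, Prl and Cga.

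**Figure D4:**
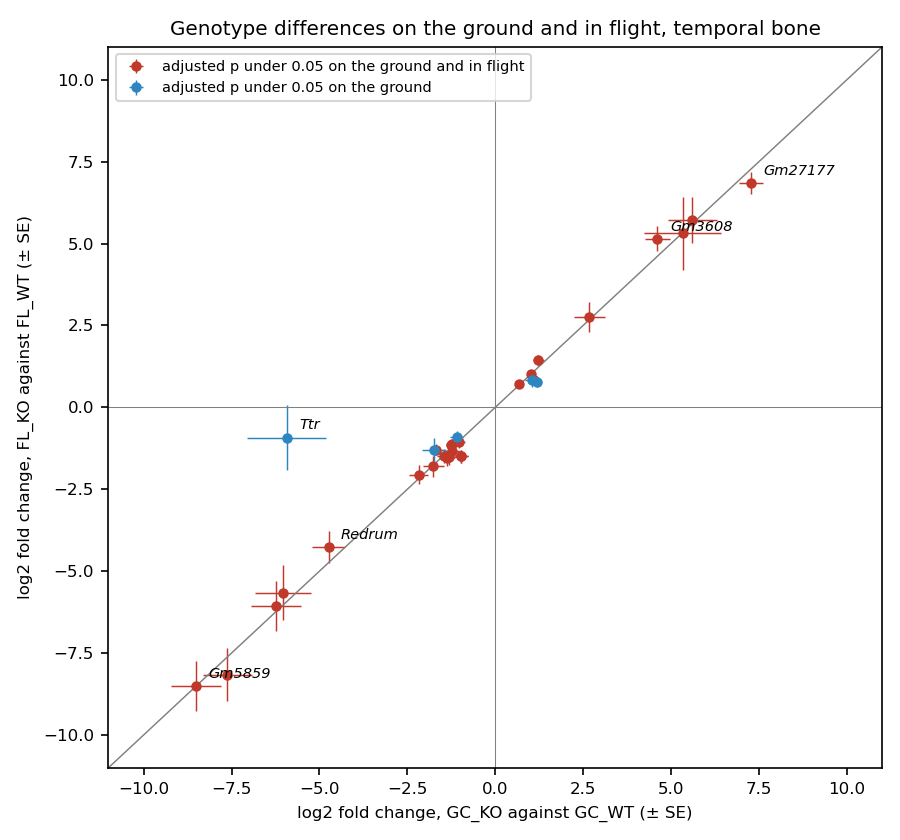
Log2 fold change of KO over WT on the ground (horizontal) and in flight (vertical), each with its SE, for the 31 called genes in which no group was at 0 throughout (5 genes are left out). The SE was worked out from the F statistic of the edgeR test. Points lie close to the line of equality with the same sign on both axes, and Ttr is the farthest from it.

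The same 36 genes were looked up in 8 other tissues of the ground mice, which came from the same animals and so are not an independent sample of mice. Of those tested, the spleen called 29 of 33 in the same direction, the cerebrum 26 of 31, the thymus 23 of 29 and epididymal white fat 23 of 31. The kidney called 22 of 30, the liver 21 of 28, the mandibular bone 21 of 31 and interscapular brown fat 20 of 27. In the mandibular bone and kidney there were 3 mice a group. Against this, the share of all tested genes called was 1.13% in the spleen, 0.836% in the cerebrum, 3.81% in the thymus, 2.74% in epididymal fat, 1.61% in the kidney, 2.64% in the liver, 0.244% in the mandibular bone and 2.14% in brown fat.

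Some calls ran through every tissue. Wdfy1, Capza1, Entpd4, Entpd4b, Tmem267, Cdc42bpg, Nfe2l2, Gm27177, Gm3608, Gm7868, Gm5859, Gm13301 and Gm17167 were called in all 8 with the sign seen in temporal bone. In the spleen the Nfe2l2 difference was small, at 77.1 TPM in WT and 64.6 TPM in KO mice (log2 fold change -0.25, SE 0.04). Capza1 kept a log2 fold change between -1.07 (cerebrum) and -1.34 (brown fat) across tissues whose WT mean ranged from 15.9 TPM in the liver to 175 TPM in the spleen. Gstm1 fell furthest in the liver and kidney, by 2.27 and 2.39 on the log2 scale, and in mandibular bone its log2 fold change of -0.97 was not called (adjusted p = 0.23, edgeR). Ftl1-ps1 was called lower in 7 of the 8, the exception being the thymus, at 5.73 TPM in WT and 5.31 TPM in KO mice. By the study's methods, only thymus RNA was depleted of ribosomal RNA instead of being selected for poly(A). The part of this in the exception was not tested. Olfml3 alone was called in the opposite direction in a tissue: in epididymal white fat it rose from 3.66 to 8.27 TPM (log2 fold change 1.06, SE 0.14, adjusted p = 6.62e-05). Osgin1 was called in the spleen and kidney.

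**Figure D5:**
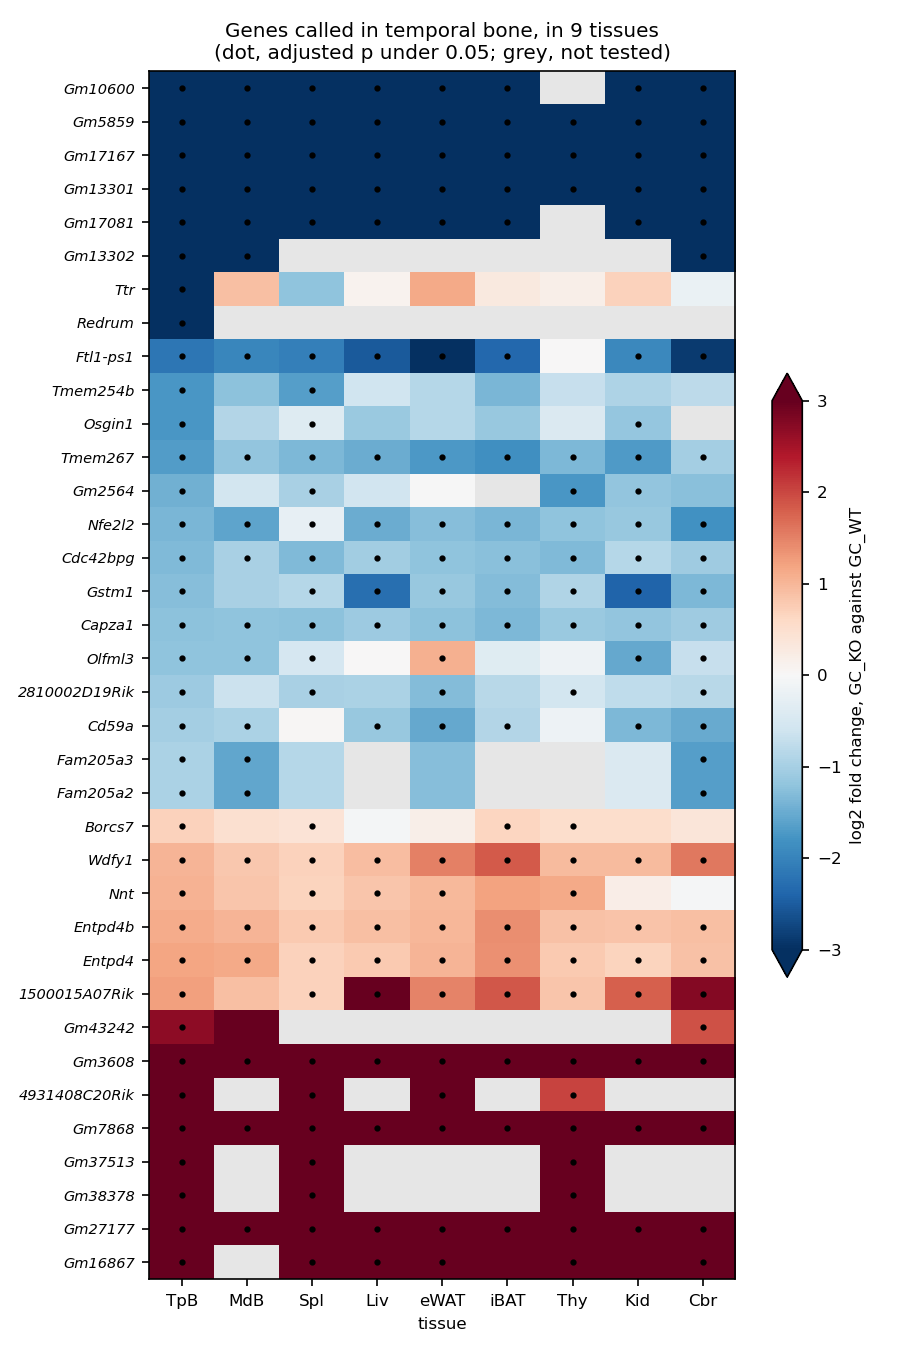
Heat map of the log2 fold change of KO over WT on the ground for the 36 genes called in temporal bone, in the 9 tissues of the series (colours end at 3 and -3, dots mark an adjusted p under 0.05, grey was not tested). Most rows keep one colour across tissues, while Ttr has no dot outside temporal bone and Olfml3 changes colour in epididymal white fat.

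None of the bone and inner ear genes listed was called by edgeR, DESeq2 or limma. Over all genes tested edgeR called 0.198%, so lists of this size could hold no call at that share. Of the osteoblast genes, 10 of 16 had a log2 fold change below 0 (median -0.08), of the osteoclast genes 11 of 16 (median -0.18) and of the osteocyte genes 2 of 10 (median 0.09). Col1a1, the main collagen chain of bone, stood at 521 ± 195.5 TPM in WT and 388 ± 145.5 TPM in KO mice (log2 fold change -0.46, SE 0.31), Phospho1, which starts mineral formation, at 75.2 ± 7.25 and 66.0 ± 5.83 TPM (log2 fold change -0.25), and Fgf23, the phosphate hormone of osteocytes, at 8.11 ± 4.03 and 14.5 ± 11.6 TPM (log2 fold change 0.85). Genes that control osteoclasts (8 tested, median 0.01), Wnt and BMP signals (17, median 0.06), chondrocyte genes (13, median -0.03) and fibrillar collagens (18, median 0.00) had medians close to that of all genes. None of these 7 lists held a gene at an unadjusted p under 0.05, against 2.90% of all genes tested. Il17a was listed at 0 in every library.

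In the inner ear lists, 13 of 18 hair cell genes and 12 of 17 supporting cell genes had a log2 fold change above 0 (medians 0.06 and 0.07), with none at an unadjusted p under 0.05. All 11 genes of the stria vascularis, the tissue that secretes endolymph, were above 0 (median 0.24), 1 of them at an unadjusted p under 0.05. This was Slc12a2, its sodium-potassium-chloride carrier, at 67.2 ± 17.2 TPM in WT and 94.5 ± 33.3 TPM in KO mice (log2 fold change 0.40, SE 0.19, adjusted p = 0.999, edgeR). Without GC01, the KO mouse with the least muscle transcript, the median of the stria list was -0.03. The flown mice had a median of -0.44 for that list.

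Marrow genes were mostly on the lower side in the KO libraries without any call by the 3 tools. All 18 neutrophil genes had a log2 fold change below 0, with a median of -0.90 and 2 at an unadjusted p under 0.05. Over all genes tested 2.90% had such a p. Their summed level ran from 2200 through 6065 to 10125 TPM in WT and from 1029 through 3901 to 5237 TPM in KO mice, so the groups overlapped. Retnlg stood at 177 ± 80.0 and 79.4 ± 31.2 TPM (log2 fold change -1.29, SE 0.49) and S100a8, a calcium-binding alarmin, at 1016 ± 367 and 523 ± 208 TPM (log2 fold change -1.07, SE 0.49), each with an adjusted p of 0.999 (edgeR). In bulk RNA, fewer cells of a type and less RNA per cell cannot be told apart. The median was -1.43 among the 6 mice of the lower library numbers, -0.10 among the 6 of the higher, -0.38 with the level of muscle genes as a covariate, and -0.08 in the flown mice.

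B lineage genes gave a like picture, 15 of 16 below 0 with a median of -0.86 and 4 at an unadjusted p under 0.05, and 0.13 in the flown mice. Rag1 and Rag2, which cut and rejoin antigen receptor genes, stood at 1.73 ± 0.56 and 1.24 ± 0.57 TPM in WT and at 0.75 ± 0.36 and 0.70 ± 0.17 TPM in KO mice (log2 fold changes -1.29 and -0.98, adjusted p = 0.603 and 0.999, edgeR). Erythroid genes were below 0 in 17 of 18 (median -0.23), T and NK cell genes in 13 of 15 (median -0.45), megakaryocyte genes in 11 of 12 (median -0.44), mast cell, eosinophil and basophil genes in 10 of 12 (median -0.48), monocyte and macrophage genes in 12 of 16 (median -0.18) and plasma cell genes in 7 of 12 (median -0.37). In each of these lists at most 1 gene had an unadjusted p under 0.05. In the plasma cell list this was Ighg2c, which was higher in KO mice (log2 fold change 2.56, SE 0.99, unadjusted p = 0.0172, edgeR). It had 642 counts in the KO mouse GC12 and 66 or fewer in each other KO mouse.

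Genes of adjoining tissues varied between the same libraries. All 20 skeletal muscle genes were below 0 (median -0.39), and their summed level ran from 12819 through 25514 to 34320 TPM in WT and from 473 through 17989 to 44266 TPM in KO mice. Adipocyte genes were below 0 in 13 of 14 (median -0.54), with Cfd, the complement factor adipsin, at 308 ± 118 and 110.5 ± 86.9 TPM (log2 fold change -1.45, unadjusted p = 0.0291). The summed level of the pituitary list, drawn up after these values were seen, ran from 13.7 through 37.6 to 79.6 TPM in WT and from 11.02 through 122 to 14190 TPM in KO mice. All 6 members tested were above 0 (median 4.39), 4 at an unadjusted p under 0.05, and none was called by edgeR, while DESeq2 called Gh, Prl and Cga. Skin and airway epithelial genes summed to 33169 TPM or more in GC04, GC06, GC07 and GC12, 2 mice of each genotype, and to 4451 TPM or less in the other 8 (median log2 fold change -0.20, no call). The part of these differing mixtures in the values above was not tested.

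Of the remaining lists, nerve, myelin, endothelial, smooth muscle and salivary gland genes had medians between -0.10 and 0.14 with no call. The list of brain glia and choroid plexus held 1 call, Ttr. All 23 cell cycle genes were below 0 (median -0.30), as were 33 of 34 nuclear genes of oxidative phosphorylation (median -0.11) and 20 of 21 heat shock and unfolded protein genes (median -0.10). Among the oxidative phosphorylation genes Cox5b, a subunit of cytochrome c oxidase, stood at 390 ± 36.5 TPM in WT and 298 ± 61.1 TPM in KO mice (log2 fold change -0.41, SE 0.13, unadjusted p = 0.0051, adjusted p = 0.875, edgeR). Circadian clock genes were above 0 in 16 of 19 (median 0.16) and interferon-stimulated genes in 15 of 22 (median 0.06). Inflammatory genes (13 of 17 below 0, median -0.16), haem and iron genes (14 of 16, median -0.15), p53 and senescence genes (10 of 16, median -0.09) and immediate early and glucocorticoid genes (8 of 21, median 0.03) held no call either.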

How the data were processed

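Poly(A) RNA of each temporal bone was made into strand-specific libraries and sequenced as single reads on an Illumina HiSeq2500. Per the submitters' processing notes the authors used bcl2fastq, STAR 2.6.1 and RSEM 1.3.1 with mm10 (GRCm38) and GENCODE vM20, and deposited expected counts, TPM and FPKM for 54752 genes in each of 192 samples. The 192 FPKM columns were not used. The counting setting for strand is not given in the sources used here. Gene coordinates came from GENCODE vM21 (99.9% of IDs), and 93 symbols are used by more than one ID.

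The deposited expected counts were rounded and the deposited TPM values used only for levels. Groups came from the labels. Genes passing edgeR's filterByExpr (minimum count 10) were TMM-normalised and tested with edgeR 4.0.16 (quasi-likelihood test, R 4.3.3) in 1 model of all 4 temporal bone groups (23 libraries, without FL04, which the study left out too). The contrast was ground KO against ground WT. An adjusted p (Benjamini-Hochberg over all genes tested) under 0.05 is a call. The SE of an edgeR log2 fold change is its size over the square root of the F statistic of that test. It therefore restates the test and is not a separate measure of precision. Other tissues were fitted separately in the same way. Depth was 14065045 to 15088482 counts a ground library, and intervals on count ratios cover counting error only. The scripts were tested on simulated data.

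Other settings tried were RLE factors, DESeq2 (version 1.42.0), limma (version 3.58.1, log2(TPM + 1), genes at a mean TPM of at least 5), no filter, FL04 included, the range of library numbers (lower or higher, 3 mice of each genotype in each) as a covariate or alone, only the ground groups, a skeletal muscle covariate, and each ground mouse left out. Leaving out libraries rich in pituitary (Gh) or choroid plexus (Ttr) transcripts, over 100 TPM, was chosen after seeing the data, as were the lists for these tissues.

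The members and gene lists were chosen with earlier results of these data known. Named were Nfe2l2, 8 standard Nrf2 targets (Nqo1, Hmox1, Gclc, Gclm, Gstm1, Txnrd1, Srxn1 and Gsta4), calls within 20 Mb of Nfe2l2, up to 12 higher and 12 lower calls with the largest change (mean TPM of at least 1 in either group, no overlap), and the leading genes of each list. 4931408C20Rik, Gm38378, Gm37513, Cdc42bpg, Borcs7, Cd59a, Olfml3, Capza1, Fam205a2, Fam205a3, Ftl1, Loxl2, the second Nnt ID, Gh and the tissue markers were named after their values were seen.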

Additional observations from a re-analysis of the deposited data

Results flagged for a closer look

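Among 104 groups of 6 ground mice checked for a value far from the other 5 by Dixon's ratio at its 95% limit, 13 passed. Chance passes about 1 in 20 groups, but the 13 are not compared with that share, since Gh, Prl and Cga were picked after the values of GC01 were seen, and a lone value above 0 among zeros (Gm13302, 4931408C20Rik) always passes. Of the 13, 8 came from the KO mouse GC01. They were Gh at 11287 TPM, Prl at 2073 TPM and Cga at 399 TPM, the pituitary hormone genes, against at most 1183, 155 and 42.3 TPM in the other KO mice. Entpd4 was at 153.8 TPM (others 63.8 to 82.5), Entpd4b at 72.5 TPM (30.9 to 41.5), Gsta4 at 314 TPM (108 to 158), Ttr at 29.7 TPM (4.54 to 8.65) and Gm13302 at 0.08 TPM (all others 0) in the same mouse.

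The other 5 came from 5 mice. Tmem254b was at 14.3 TPM in the KO mouse GC12 (others 4.47 to 7.13) and Gm17081 at 1.33 TPM in the KO mouse GC11 (0 to 0.37). Srxn1 was at 94.5 TPM in the WT mouse GC08 (30.7 to 52.8). Mgst1 was low, at 101.9 TPM, in the WT mouse GC10 (125.6 to 138.5). 4931408C20Rik was at 0.02 TPM in the WT mouse GC06 (all others 0).

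Olfml3 moved in opposite directions in 2 tissues of the same mice without overlap between genotypes in either, lower in KO temporal bone and higher in KO epididymal white fat (log2 fold change 1.06). The difference between the tissues was not tested.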

How the results depend on the processing

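The count of 36 called genes stayed within 1.5 times with limma (28), RLE factors (36), no filter (35), FL04 included (35), library number range as a covariate (36), the muscle covariate (36) and a mouse left out (29 to 37). It moved further with DESeq2 (56, which kept all 36), with only the ground groups in the model (22), with 3 mice a group from the lower (1) or higher (2) library numbers, and without both the pituitary-rich and choroid plexus-rich libraries (15). Fewer samples enter all but the first. The 36 genes kept their sign wherever they were tested. For the flight comparison the count stayed between 27 and 53. The interaction count was 0 except with DESeq2 (3).

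Small values of genes not called turned sign. Gclm was at 0.008 without the pituitary-rich libraries. Gsta4 was at -0.0874 with the muscle covariate, -0.164 without the pituitary-rich libraries and -0.192 without both sets, and ran from -0.151 (without GC01) to 0.254 with a mouse left out. Srxn1 was at 0.179 in the lower library numbers, 0.00564 without the pituitary-rich libraries, 0.107 without the choroid plexus-rich ones and 0.215 without both, and ran from -0.218 to 0.076 (without GC08) with a mouse left out. The cause was not tested.

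No paired analysis was possible between the ground genotypes because they share no mouse number. For the interaction with flight, mouse numbers as a replicate block gave 0 calls. Same-numbered deviations correlated from -0.45 to 0.70 (median 0.28), 6 of 11 pairs over 0.1. Same-numbered libraries came from different animals and shared a library number range, so these values cannot show whether the numbers pair the mice.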

Other observations

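Within the WT mice, 6 of the 9 called chromosome 4 genes (Gm13302, Gm17167, Gm13301, Gm5859, Gm17081 and Gm10600) split the mice in the same way, while Gm2564, Fam205a2 and Fam205a3 did not. Gm5859 was at 7.24, 14.2 and 12.1 TPM in GC03, GC06 and GC10 and at 36.0, 45.0 and 43.9 TPM in GC05, GC07 and GC08. Gm10600, in the same stretch, was at 5.13, 7.71 and 6.71 TPM and at 19.9, 24.8 and 25.6 TPM in those mice. Cdc42bpg, on chromosome 19, split the same 6 mice, at 30.6, 27.4 and 27.9 TPM against 43.2, 65.1 and 53.3 TPM. The summed level of the erythroid list split these mice the other way, at 109063, 82339 and 102044 TPM in GC03, GC06 and GC10 and 30347, 36572 and 29183 TPM in GC05, GC07 and GC08, as did the osteoclast and cell cycle lists. The split was noticed in these values, and the part of the tissue mixture in it was not tested.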
